A study of Mus musculus with 12 samples.

Results

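Fabp5, Fabp3, Apoc2, Apoe, Apoa1, Apob, Apom, Lrp2, Cd36 and Scarb1 are genes whose products bind lipids inside the cell, carry them in lipoproteins or take them up at the cell surface. These 10 genes, of 45801 listed in the series, were chosen by name as one functional family after 2 of them, Fabp5 and Apoc2, had been picked for their change in the blastocyst table. That change is therefore given as a description and not as a test, and the same holds for the other members in blastocysts. The ES cell comparison played no role in the choice.

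RNA was sequenced from mouse material with and without Dis3l, whose product is the nuclease of the RNA exosome in the cytoplasm and shortens RNA from the 3′ end. There were 12 samples by the labels: 3 Dis3L KO and 3 Dis3L WT blastocysts, the embryo stage before implantation, and 3 Dis3L KO and 3 Dis3L WT samples of embryonic stem (ES) cells, which are cultured pluripotent cells. Blastocysts came from females treated with PMSG and hCG and were collected 96 h after hCG, and each library was made from a single embryo with Tn5 transposase. ES lines were derived from blastocysts and grown with LIF on inactivated mouse embryonic fibroblasts, which can add their own RNA to the sample, and were sequenced as stranded libraries after removal of ribosomal RNA. The strain, the allele and whether ES samples of one genotype were separate lines are not given in the sources used here, so the spread between samples may be partly technical.

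The deposited data are 1 table of comparison statistics per material, and neither table says which genotype was divided by which. Log2 fold changes are therefore given with their deposited sign, and the 2 sides are called the positive and the negative side. Each read of a column adds the same amount to the authors' mean of a gene, and solving the means for whole reads gave the reads of single genes in 6 blastocyst columns (3 on each side) and 4 ES cell columns (2 on each side). Columns were not assigned to genotypes or samples, and their numbers are names only. Reads divided by the size factor of the column are called normalised reads. Size factors ran from 0.695 to 1.62 in blastocysts and from 0.759 to 1.25 in ES cells, and the authors' means summed to 4608914 and 1513923. Of the reads above 0 recovered in blastocysts, 96.7% were even numbers, against 49.5% in ES cells, so an embryo's fragments appear mostly as pairs of reads and the independent evidence is smaller than the counts.

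The targeted gene did not separate the blastocyst sides. Dis3l had 26, 8 and 0 reads in the positive-side blastocyst columns and 10, 4 and 8 on the negative side. In ES cells it had 14 and 8 reads on the positive and 39 and 39 on the negative side, with a refitted log2 fold change of -1.78 ± 0.67 (SE). Marker lists fit the labelled materials: all 15 trophectoderm and all 12 epiblast markers had a mean above 0 in blastocysts, 15 of 16 endoderm markers did (Afp was at 0), and 8 of 12 fibroblast markers were at 0, among them Col1a1, Col1a2 and Col3a1. Of 8 markers of cumulus and other maternal cells, 6 were at 0 in blastocysts and only the haemoglobin genes Hbb-bs and Hba-a1 were above it, at means of 0.825 and 1.30.

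Fatty acid-binding proteins are small cytoplasmic proteins that hold long-chain fatty acids and hand them to membranes and nuclear receptors. Apolipoproteins cover lipoprotein particles and serve as ligands for receptors of the LDL receptor family, to which Lrp2 belongs, while Scarb1 and Cd36 are scavenger receptors for high-density lipoprotein and fatty acids. In the embryo the yolk sac endoderm is the best known early source of secreted apolipoproteins. Apoe, Apoc1, Apoc4 and Apoc2 lie side by side in one gene cluster on mouse chromosome 7.

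The stretches before the Apoc2 and Apoe starts are shown because the 2 genes share that cluster and differed in the blastocyst table. Both are on the minus strand and are printed 5′ to 3′, ending at the last base before the RefSeq start (GRCm38.p6). The Apoc2 stretch is 141 bases long, chr7:19677942-19678082, because the Apoc4 gene model begins beyond it. The Apoe stretch is 250 bases long, chr7:19699189-19699438. Capitals mark AGGTCA, a site bound by many nuclear receptors.
Apoc2: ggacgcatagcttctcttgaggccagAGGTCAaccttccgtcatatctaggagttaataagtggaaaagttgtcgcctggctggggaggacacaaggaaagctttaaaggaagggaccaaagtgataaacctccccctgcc
Apoe: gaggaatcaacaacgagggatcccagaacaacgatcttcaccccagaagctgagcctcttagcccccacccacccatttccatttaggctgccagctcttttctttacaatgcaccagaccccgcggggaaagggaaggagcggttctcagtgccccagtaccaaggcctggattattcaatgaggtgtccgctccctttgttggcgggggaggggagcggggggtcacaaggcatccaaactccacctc
RefSeq's promoter table matched 8 of the 10 members. In Apoc2 the AGGTCA lies 115 to 110 bases before the start, and Cd36 holds one on the other strand, 228 to 223 bases before its start. Of 32851 promoters, 14.0% hold this motif on either strand in their 250 bases. A pair of AGGTCA 1 base apart, the arrangement read by PPAR and RXR pairs, was found in 0.0335% of promoters and in none of the matched members. GGGCGG (32.7% of promoters), TATAAA (12.4%) and CCAAT (33.8%) were searched on both strands too, and the Apoc2 and Apoe stretches printed hold none of them. Apoe has 3 RefSeq starts, of which start 1 is printed, and TATAAA lies 96 to 91 bases before start 2. The motifs describe these letters and were not tied to binding of any factor.

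Fabp5 and Apoc2 were the 2 members that passed the threshold in blastocysts, both at a lower level on the positive side. Of the 8 tested members 6 had a negative log2 fold change, these 2 among them. The median over all tested genes was -0.04, and nothing is read from the count of signs. Fabp5, also called epidermal fatty acid-binding protein, lies at chr3:10012548-10016607 (GRCm38). It had 20, 0 and 8 reads in the positive-side columns and 528, 18 and 228 reads on the negative side. In normalised reads these were 14.3, 0 and 9.14 against 327, 20.1 and 328. The sides did not overlap, but negative-side column 2 was close to the positive side while the other negative-side columns were far above it. Means were 7.81 ± 7.23 (SD, n = 3 columns) and 225 ± 177 (SD, n = 3 columns), a 28.8-fold difference. In the authors' deposited table the log2 fold change was -4.83 ± 0.96 (SE) with an adjusted p-value of 0.00213 (DESeq2, Benjamini-Hochberg adjustment), and this value led to the choice of the gene.

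Apoc2, the cofactor that activates lipoprotein lipase, was also lowest on the negative side in column 2. No read was recovered from the 3 positive-side columns, and the negative side had 82, 10 and 62 reads. In normalised reads the negative-side columns held 50.7, 11.1 and 89.2, with a mean of 50.4 ± 39.0 (SD, n = 3 columns). Reads came in pairs here, so a count of 0 allows up to 3 fragments or 6 reads in a column. The negative-side mean was 8.77 times that floor. This factor takes the mean as exact, although its columns ran from 11.1 to 89.2, so it is not a lower limit. That floor covers counting error only, whereas the intervals given here come from the fitted model and include its estimated spread between columns. The authors' deposited table gives a log2 fold change of -8.19 ± 1.73 (SE) and an adjusted p-value of 0.00404 from DESeq2, a size that depends on how the fit treats the zeros.

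Of the 8 members with an adjusted p-value in blastocysts, these 2 were under 0.05, beside 0.0986% of 15209 tested genes and 0.0855% that were lower on the positive side. Nothing is read from that count, since the same comparison chose them. Since the sides of neither gene overlapped, leaving out a single column could not change the sign, and only the size is described. For Fabp5 the log2 ratio of normalised reads, with a pseudocount of 0.5, was -4.76 over all columns and lay between -5.47 (without positive-side column 1) and -4.21 (without positive-side column 2). For Apoc2 it was -6.67 and lay between -7.14 (without negative-side column 2) and -5.97 (without negative-side column 3). A whole-embryo library cannot tell fewer cells of a type from less RNA per cell.

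**Figure D1:**
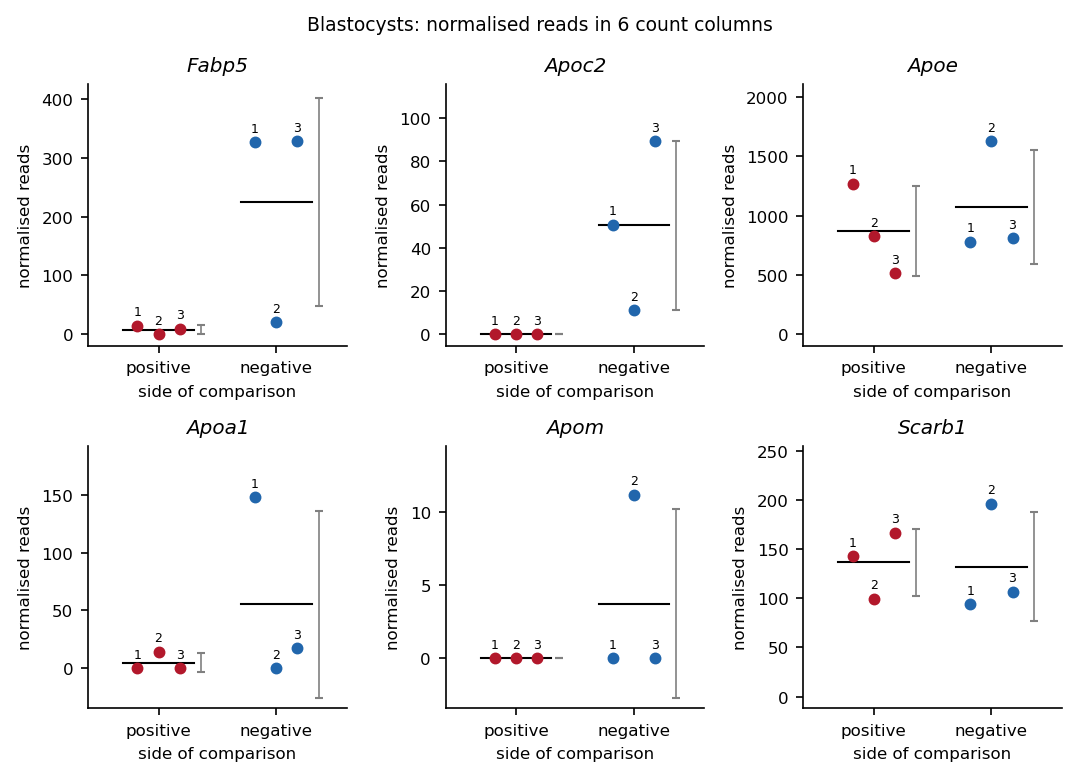
Normalised reads (vertical axis) of 6 members in the 6 blastocyst count columns, with the positive side in red and the negative side in blue. Small digits name the column, the black line is the mean of 3 columns and the grey bar its SD. Fabp5 and Apoc2 lie apart between the sides, with negative-side column 2 at 20.1 and 11.1, while Apoe and Scarb1 overlap.

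The genome holds 5 processed pseudogenes that carry a near-identical copy of the Fabp5 transcript (at least 90% identity over at least 200 bases), and reads can be split between them. They were looked for after the values were known. Gm6166 matched at 98.3% over 409 bases, Gm14328 at 97.3% and Fabp5l2 at 94.1%, and these 3 held reads, while Gm13998 and Gm6100 were listed at a mean of 0. Gm6166 had 28, 0 and 0 reads on the positive and 42, 0 and 66 on the negative side. Gm14328 had none on the positive side, against 16, 0 and 26 on the negative side, and Fabp5l2 had 16 reads in negative-side column 3 alone. None of the 3 passed the threshold in the authors' deposited table, where the lowest adjusted p-value among them was 0.649 for Gm14328.

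Together the copies made up 23.2% of the normalised reads assigned to Fabp5 and its copies. Adding them to Fabp5 gave 34.3, 0 and 9.14 normalised reads on the positive side, against 362, 20.1 and 483 on the negative side. The difference of the summed means was 19.9-fold, against 28.8-fold for Fabp5 alone. Unlike Fabp5 alone, the sums overlapped: positive-side column 1 (34.3) was above negative-side column 2 (20.1). Whether copy reads came from Fabp5 RNA was not tested.

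**Figure D2:**
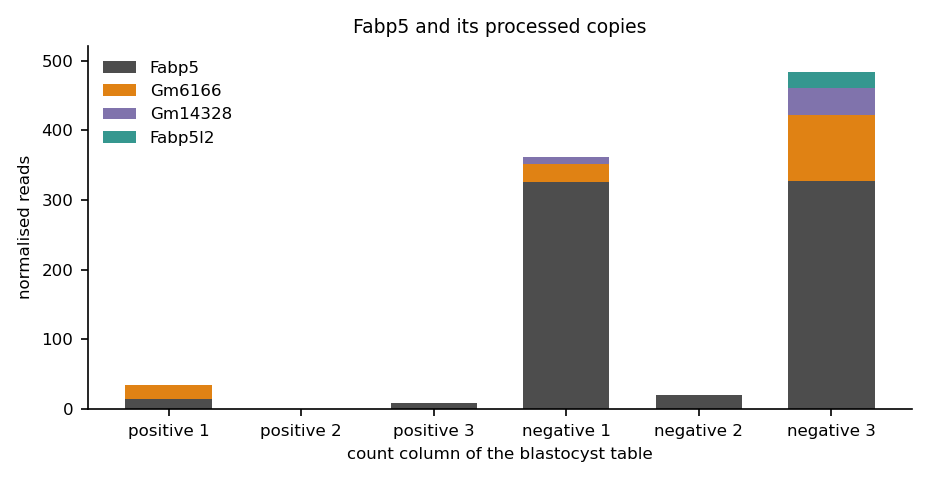
Stacked normalised reads (vertical axis) of Fabp5 and its 3 copies with reads in each of the 6 blastocyst count columns (horizontal axis). The copies add most in negative-side column 3, where the sum reaches 483, and the sums on the positive side stay at or under 34.3.

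Fabp3, the heart-type fatty acid-binding protein, was the member with the highest level per length in blastocysts. Its authors' mean was 2490, or 3026 per kb of its longest coding transcript. Reads per column were not searched for above a mean of 500, Apoe apart, so none are given for Fabp3. The mean and fold change of the authors' deposited table imply 2615 on the positive and 2365 on the negative side, a log2 fold change of 0.14 ± 0.25 (SE) with an adjusted p-value of 0.958. A copy, Fabp3-ps1, is 99.3% identical over 402 bases and had its own mean of 459. Fabp3-ps1 held 674, 376 and 574 reads on the positive side, against 688, 332 and 304 on the negative side, overlapping, so part of the Fabp3 signal may be counted there.

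The rest of the intracellular lipid-binding family was close to absent in blastocysts. Of 13 further family members, 9 were at a mean of 0, among them Fabp1, Fabp4 and Fabp7. No gene of this list passed the threshold in the authors' deposited table.

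Apoe, the ligand that carries lipoproteins to LDL-family receptors, was read in every blastocyst column. It had 1778, 814 and 450 reads on the positive side, against 1260, 1458 and 562 on the negative side. Normalised reads were 1269, 826 and 514 against 779, 1625 and 809, so the sides overlapped. The highest Apoe value came from negative-side column 2, the column in which Fabp5 and Apoc2 were lowest on that side. The authors' deposited table gives a log2 fold change of -0.30 ± 0.40 (SE) and an adjusted p-value of 0.917. Without negative-side column 2 the log2 ratio was 0.13, and without positive-side column 1 it was -0.68.

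Apoa1, the main protein of high-density lipoprotein, was read in only 3 of 6 blastocyst columns. It had 0, 14 and 0 reads on the positive side, against 240, 0 and 12 on the negative side. Negative-side column 1 alone held 82.5% of its normalised reads, and the sides overlapped. In the authors' deposited table the log2 fold change was -3.55 ± 3.59 (SE) with an adjusted p-value of 0.841, and without that column the log2 ratio was -0.80. Apom, which carries sphingosine-1-phosphate on lipoproteins, had 10 reads in negative-side column 2 and none in the other columns. Apob, the structural protein of low-density lipoprotein, was listed at a mean of 0.

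Other apolipoproteins were sparse. Of 13 on the list, 6 were at a mean of 0 in blastocysts and 5 had an adjusted p-value, none of which passed. Apoc1, an inhibitor of lipoprotein lipase encoded between Apoc2 and Apoe, had 184, 36 and 50 reads on the positive side, against 264, 118 and 114 on the negative side. Its sides did not overlap in normalised reads, but the share of all genes without overlap was not computed, so nothing is read from that. The authors' deposited table gives -1.02 ± 0.61 (SE) with an unadjusted p-value of 0.09 and an adjusted p-value of 0.811 (DESeq2).

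Lrp2, or megalin, is an endocytic receptor of polarised epithelia that takes up lipoproteins and vitamin carriers. Its authors' mean was 3359, or 217 per kb. Reads per column were not searched for at this mean, which is above the limit of 500. The mean and fold change of the authors' deposited table imply 2127 on the positive and 4591 on the negative side, a log2 fold change of -1.11 ± 1.20 (SE) with an adjusted p-value of 0.868. That standard error is unusual for an abundant gene: the median over 89 tested genes with a mean of 2000 to 4000 was 0.27, and 2 of them exceeded Lrp2.

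Partners of Lrp2 were looked up after the values were seen. Cubn, encoding cubilin, which binds apolipoprotein A1, had a log2 fold change of -0.05 in the authors' deposited table, with a 95% interval from -2.68 to 2.58 around it and a mean of 980. Amn, which anchors cubilin to the membrane, had -0.18 ± 2.50 (SE) at a mean of 143. Dab2, the adaptor for their endocytosis, had 0.25 ± 0.27 (SE) at a mean of 3406, so the standard error was wide for the receptors and narrow for the adaptor.

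Scarb1, the receptor for high-density lipoprotein, had 200, 98 and 146 reads on the positive side of the blastocyst table and 152, 176 and 74 on the negative side. Normalised means were 136 ± 34.1 (SD, n = 3 columns) and 132 ± 55.8 (SD, n = 3 columns), and the columns overlapped. The authors' deposited table gives a log2 fold change of 0.05 ± 0.53 (SE). Cd36, the fatty acid translocase, was listed at a mean of 0.

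Per length, the order of the authors' means in blastocysts was Fabp3, Apoe (689 per kb), Lrp2, Fabp5 (118), Scarb1 (53.3), Apoc2 (34.6), Apoa1 and Apom (1.83).

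ES cells gave the comparison that had no part in the choice. There 7 members were listed and 5 had an adjusted p-value. None of the 5 passed 0.05 in the authors' deposited table (0.261% of 10739 tested genes did), none had an unadjusted p-value under 0.05, and no other tool was run. Apoc2, Apoa1 and Cd36 are not among the genes listed, whose lowest mean was 2.08. The deposited ES cell fold changes are drawn towards 0 by a normal prior with an SD of 0.47 on the log2 scale. Values refitted on the recovered reads without that prior are given for each member.

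**Figure D3:**
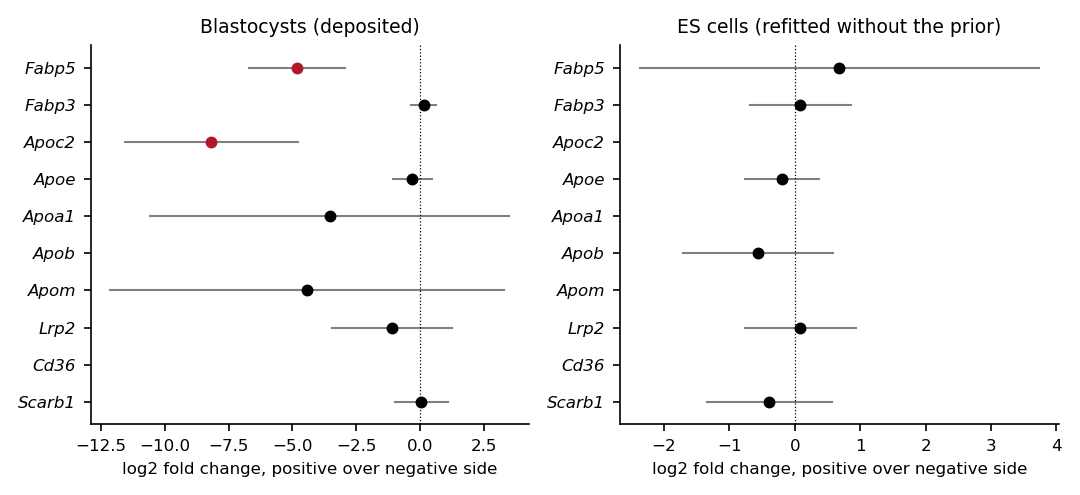
Log2 fold changes, positive over negative side (horizontal axis), of the 10 members with 95% intervals, as deposited for blastocysts (left) and refitted without the prior for ES cells (right). Red marks the adjusted p-value under 0.05 of Fabp5 and Apoc2, and a gene without a point has no value in that material. All ES cell intervals include 0.

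Fabp5 was close to the detection limit in ES cells, with 8 and 2 reads on the positive side, against 3 and 3 on the negative side. The refitted log2 fold change was 0.68 ± 1.56 (SE), with a 95% interval from -2.37 to 3.73. That interval does not reach the blastocyst value of -4.83, which was chosen for its size and has its own interval from -6.72 to -2.94. The direction of neither comparison is known, and with its sign turned the blastocyst interval overlaps that of ES cells. A difference between the materials was not tested, because no model could be fitted over both tables. Fabp3 had 100 and 95 reads on the positive and 86 and 114 on the negative side, and its refitted value was 0.08 ± 0.39 (SE), interval -0.69 to 0.85.

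Apoe was the most abundant member in ES cells, at 1474 per kb. It had 2491 and 1428 reads on the positive side, against 3044 and 1591 on the negative side. Its refitted log2 fold change was -0.20 ± 0.29 (SE), with an interval from -0.76 to 0.36. Apob, at a mean of 0 in blastocysts, had 34 and 26 against 67 and 27 reads, a value of -0.56 ± 0.59 (SE) that rested on negative-side column 1, since the log2 ratio was 0.23 without it.

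Apom was the single member of the 7 listed whose ES cell sides, with 2 columns each, did not overlap. The share of all genes without overlap was not computed, so nothing is read from that. Apom had no read on the positive side, against 7 and 3 reads on the negative side. Reads did not come in pairs in ES cells, so the floor was 3 reads per column. The negative-side mean, taken as exact, was 1.51 times that floor. The authors' deposited table gives an unadjusted p-value of 0.124 and no adjusted p-value for Apom, so these few reads do not show a difference.

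The receptors overlapped between the sides of the ES cell table. Lrp2 had 97 and 169 reads on the positive and 134 and 158 on the negative side, and a refitted value of 0.09 ± 0.43 (SE), interval -0.76 to 0.93. Scarb1 had 66 and 26 reads against 52 and 68, and a refitted value of -0.39 ± 0.49 (SE), interval -1.34 to 0.56. Per length the order in ES cells was Apoe, Fabp3 (121 per kb), Scarb1 (20.0), Lrp2 (9.38), Fabp5 (3.74), Apob (2.71) and Apom (2.36). The tables were normalised separately, so levels are not compared across them.

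**Figure D4:**
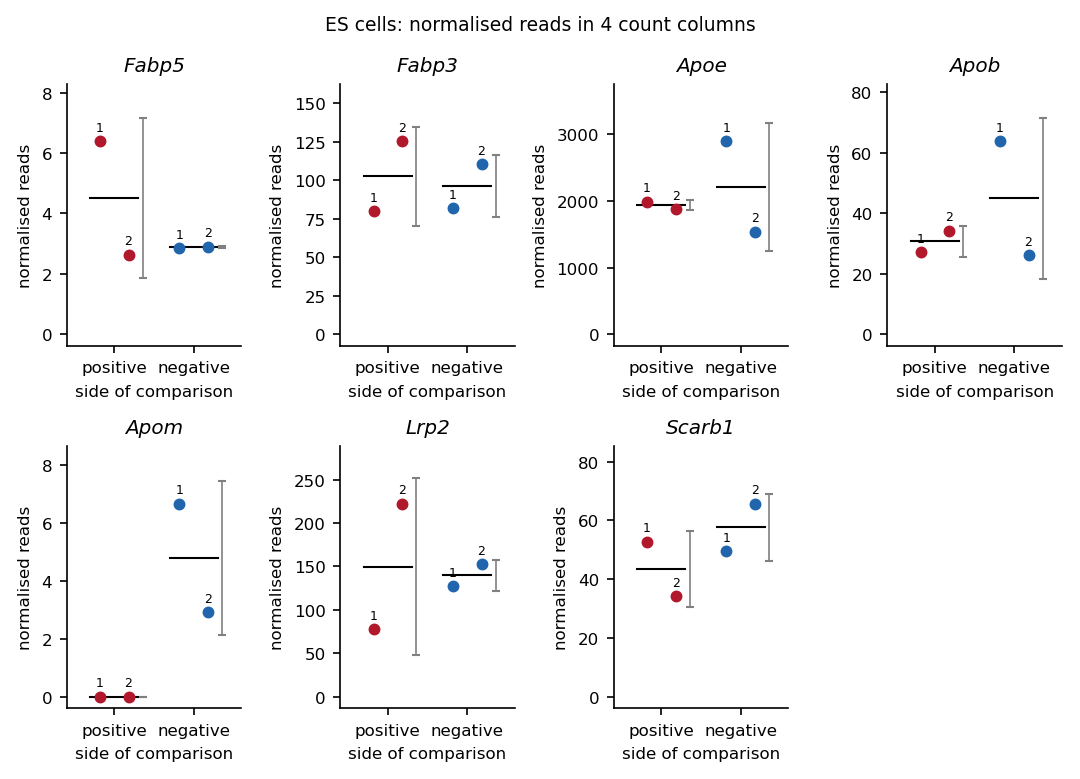
Normalised reads (vertical axis) of the 7 members listed for ES cells in the 4 count columns, with the positive side in red and the negative side in blue. Small digits name the column, the black line is the mean of 2 columns and the grey bar its SD. The sides overlap for each gene shown except Apom, which has 0 reads on the positive side.

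The neighbours of the 2 chosen genes were examined next. Within 100 kb of Apoc2 the blastocyst table lists 15 other genes, of which 12 were tested and none passed the threshold. Tomm40, a mitochondrial import channel 19.9 kb away, had -0.75 ± 0.43 (SE) and Clptm1, 6.55 kb away, had 0.12 ± 0.28 (SE) in the authors' deposited table. Cblc, 97.5 kb away, had 38, 10 and 0 reads on the positive side, against 62, 58 and 54 on the negative side. Its log2 fold change in the authors' deposited table was -2.26 ± 1.15 (SE), with an unadjusted p-value of 0.0491 and an adjusted p-value of 0.796 from DESeq2. In ES cells 11 neighbours of Apoc2 were listed and none passed. Clptm1 had 178 and 77 reads there on the positive side, against 193 and 261 on the negative side, and its log2 fold change in the authors' deposited table was -0.66 ± 0.27 (SE), with an unadjusted p-value of 0.0132 and an adjusted p-value of 0.560 from DESeq2. Around Fabp5, 4 other genes were listed in blastocysts, and 3 of them were at a mean of 0.

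Gene models limit 2 readings. The blastocyst table places Apoc2 at chr7:19671579-19681423, a model that runs across Apoc4 on the same strand, which was listed at 0. GENCODE M21 ends Apoc2 at 19677941 and gives the longer model to a readthrough gene, Gm44805, identical to Apoc2 over 647 bases. Fabp3 overlaps Zcchc17 on the opposite strand, which had a mean of 90.7, so a small part of either could be counted for the other if strand was not used.

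Column patterns most like those of Fabp5 and Apoc2 were sought among genes with a mean of 50 to 120 and a unique solution. The measure was Pearson's r of log2(normalised reads + 1) over 6 columns, which share their libraries, and it is given as a description. For Fabp5 the highest among 2568 genes were Stra13 (r = 0.989), Triap1 (0.976) and Dgcr14 (0.973). For Apoc2 the highest among 2569 genes were Brip1os (0.991), Pex16 (0.981) and Mdp1 (0.980). Stra13 had 42, 8 and 26 reads on the positive and 150, 28 and 92 on the negative side. None of these 6 genes passed the threshold in the authors' deposited table. Between Fabp5 and Apoc2 themselves r was 0.884. Both had been picked for their change over these same columns, so a high r was built in and nothing is read from it.

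Markers of embryo lineages moved with the 2 genes in part. The epiblast markers Tdgf1 (-1.75), Nanog (-1.93) and Pou5f1 (-1.21) had negative log2 fold changes in the authors' deposited table, each with an unadjusted p-value under 0.05, and none of the 12 passed after adjustment. Of the 12, 4 had a positive and 8 a negative value, with a median of -0.20 in the authors' deposited table. Marker sums cover only genes with recovered reads, which were searched for up to a mean of 500. The epiblast sum lacks Nanog, Tfcp2l1 and Dppa5a. Summed over the other 9 epiblast markers, normalised reads ran from 1000 to 2126 on the positive side. On the negative side they ran from 1957 to 2572, with negative-side column 2 at 2009. Of the 15 trophectoderm markers 2 had a positive and 2 a negative log2 fold change at that level, and none passed after adjustment. Summed endoderm markers (8 with recovered reads) ran from 1074 to 1468 on the positive side and from 737 to 1496 on the negative side. Negative-side column 2 was the highest of the 6. That sum lacks, among others, the abundant markers Lamb1 (mean 3413), Dab2 (3406), Col4a1 (1341), Cubn (980) and Gata6 (745). Its largest genes by mean were Pdgfra (480) and Gata4 (425), so it does not stand for the whole list. The endoderm markers diverged: Sox7 had a log2 fold change of 3.27 and Hnf4a, a nuclear receptor of endoderm that drives apolipoprotein genes, had -3.45. Hnf4a held 6, 2 and 0 reads on the positive side, against 44, 6 and 26 on the negative side, and Ttr, a secreted carrier of visceral endoderm, held none on the positive side, against 16, 0 and 14 on the negative side. Hnf4a and Ttr were low or at 0 in negative-side column 2, as Fabp5 and Apoc2 were, whereas Gata4 (667 normalised reads), Pdgfra (593), Foxa2 (37.9) and Sox7 (46.8) were highest there among the negative-side columns. Ttr, Gata4, Pdgfra and Foxa2 were named after their values were seen, and the part of these markers in the result was not tested.

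The wider lipid pathway was described with 8 lists of 109 genes. In blastocysts 67 were tested and none passed adjustment in the authors' deposited table, where the lowest adjusted p-value was 0.622. An unadjusted p-value under 0.05 was found for 3, or 4.48%, against 6.21% of all tested genes. The median log2 fold change of the lists was 0.05 and that of all tested genes -0.04.

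Those 3 were 2 genes of fatty acid uptake and activation and Hnf4a. Acsl3, which activates fatty acids at lipid droplets, had 749, 340 and 410 reads on the positive side, against 302, 220 and 196 on the negative side. Slc27a4, a fatty acid transporter, had 516, 426 and 536 reads against 372, 276 and 148. After normalisation the sides of both did not overlap, with the positive side higher. Both were named for their unadjusted p-value and the share of all genes without overlap was not computed, so nothing is read from that. Their log2 fold changes were 0.92 ± 0.37 (SE) and 0.91 ± 0.37 (SE) in the authors' deposited table. With adjusted p-values of 0.622 and 0.641 neither passed the threshold.

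Storage and lipase genes gave no call in blastocysts. Plin2, the coat protein of lipid droplets, had -0.07 ± 0.36 (SE) in the authors' deposited table, and Lpl, the lipase that Apoc2 activates, had 198, 54 and 44 against 54, 118 and 52 reads, overlapping, with 0.05 ± 0.74 (SE). The median log2 fold change of the 12 tested triglyceride storage genes was -0.08, with 5 of them above 0 and 7 below. These 2 genes were named after their values were seen.

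In ES cells 55 list genes were tested and none passed adjustment in the authors' deposited table (lowest adjusted p-value 0.207). An unadjusted p-value under 0.05 was found for 8, or 14.5%, against 5.62% of all tested genes, and 7 of them were lower on the positive side. The list median was -0.11 and that of all tested genes was -0.0001. Abca1, which exports cholesterol to apolipoproteins, had 426 and 219 reads against 514 and 643, and Sorl1, a sorting receptor of the LDL receptor family, had 137 and 100 against 196 and 323. Others on that side included Lrp4, Apoo, Slc27a2 and Rxra, and Scarb2, a lysosomal membrane receptor, was on the other side with 224 and 177 against 141 and 137 reads.

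One ES cell column stood apart in fibroblast markers. All 12 were listed, and their summed normalised reads were 948 and 868 on the positive side, against 918 and 2499 on the negative side. Col3a1 and Postn were highest in negative-side column 2. Whether fibroblast RNA had a part in the list values was not tested. The 8 list genes had been picked for their difference with negative-side column 2 included. Where the sides of a gene do not overlap, leaving out a column cannot change the sign. Each of the 8 kept the sign of its log2 ratio without that column, and nothing is read from that. In size, Sorl1 went from -1.05 to -0.63 and Abca1 from -0.82 to -0.64. For the members, Apoe moved from -0.20 to -0.58 and Apob from -0.54 to -1.04 on the same scale.

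**Figure D5:**
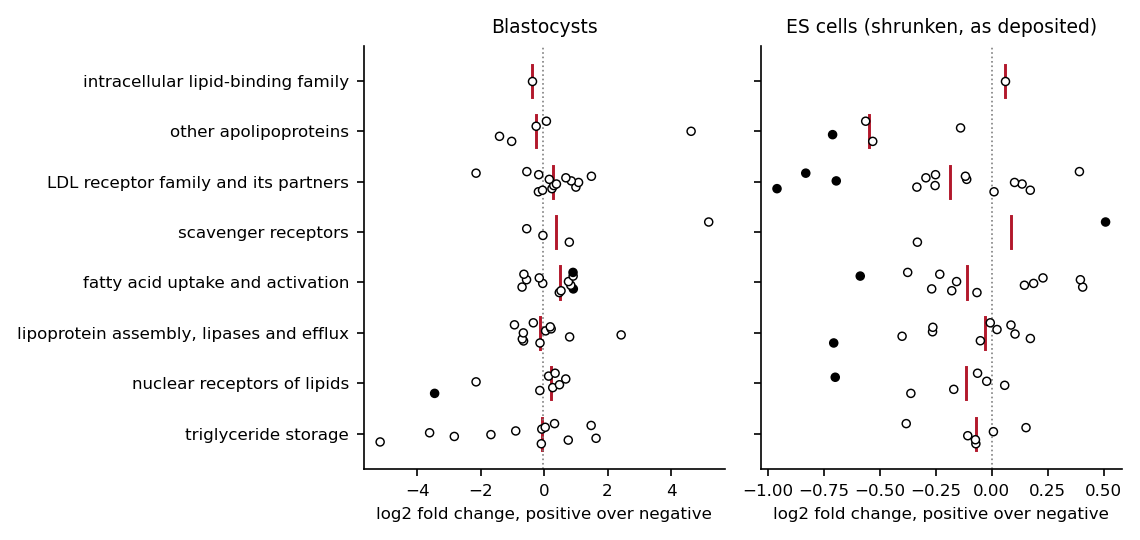
Log2 fold change, positive over negative side (horizontal axis), of each tested gene of the 8 lipid lists in blastocysts and ES cells, as deposited. Filled points have an unadjusted p-value under 0.05, the red bar is the list's median and the dotted line the median of all tested genes. No point passed adjustment, and the horizontal scales of the panels differ.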

How the data were processed

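Per the submitters' processing notes, tools included STAR 2.4.0b, featureCounts in Subread 2.0.1 and DESeq2 1.34.0, with GRCm38. Strandedness of counting is not given in the sources used here. The signal column is the authors' mean of normalised counts over count columns. Per the file headers, the log2 fold change and the standard error are in separate columns. The deposited Wald statistic, a score, equals the one divided by the other. The p-value columns are the authors' deposited p-value and Benjamini-Hochberg adjusted p-value. There were 0 unused columns of per-sample values.

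The members and lists were chosen with earlier results of these data known. The named genes were the members, list genes with an adjusted or unadjusted p-value under 0.05, genes within 100 kb of Fabp5 or Apoc2, Fabp5 copies and the 3 genes of most like pattern. Some list genes are counted but not reported by name here.

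Reads per column were solved from the 15-digit means with numpy 2.4.6 and scipy 1.17.1. A solution was kept when a refitted negative binomial model gave back the deposited fold change within 0.0001 (1e-06 above a mean of 140). Of 2667 blastocyst genes searched 2665 had 1 solution, and 127 of 127 ES cell genes did. Blastocyst genes with a mean above 500 were not searched, Apoe apart. For Fabp5, 13 solutions fitted the mean and 1 the fold change too, and for Apoe 1 of 706705. With reads at 0 on one side only the mean and the sign could be checked. The ES cell table gave 4 count columns for 6 labelled samples. No test was run across columns. The calculations were tested on simulated data. Near-identical transcripts were found with blastn in GENCODE M21, and lengths are those of the longest coding transcript there.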

Additional observations from a re-analysis of the deposited data

How the results depend on the processing

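No paired analysis was possible because the tables hold no values per sample and the count columns carry no replicate numbers. For the same reason no test could be repeated without a replicate. The count of 2 blastocyst members under the threshold was the same with a threshold of 0.01, a minimum absolute log2 fold change of 1, adjustment over every gene with a p-value, and statistics divided by their robust SD. It became 1 among genes with a mean of at least 50, since Apoc2 has a lower mean. The counts of 0 for ES cell members and for the lists in both materials were 0 under each of these. Of 96 recomputed member differences (other pseudocounts, single columns left out, no prior), 70 moved by less than 1 SE and 26 by more. In ES cells the recomputed values lack the prior that shaped the deposited value and SE. Part of the 26 is therefore a change of scale. In ES cells Apom was at -3.40 both over all columns and without positive-side column 1, against -0.30 as deposited. The 2 called members could not change sign when a column was left out, since their sides did not overlap. With a pseudocount of 5 Apoc2 was at -3.47 on the log2 scale. The refit without the prior and the check without the ES cell column high in fibroblast markers were chosen after seeing the data.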
